A study of Homo sapiens with 8 samples.

Results

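The genes described are 48 genes of autophagy and the lysosome, listed by name and followed across all arrays of a study of glucosamine in lymphoma cell lines. Each gene was read from the probe set that carried its symbol alone, and from the brightest such probe set where there were several. By this rule 47 of the 48 genes were measured, among 17958 genes in all. BECN1, a scaffold of the autophagy lipid kinase complex, had only 2 probe sets, both shared with another gene, and was not analysed here. RNA was measured on 8 Affymetrix whole-transcript arrays, with 1 RNA sample on each, and values are log2 signals, so that a difference of 1 is a 2-fold change. KMH2 is a cell line from Hodgkin lymphoma, and it was profiled on 3 arrays as control and on 3 arrays after 24 h of glucosamine, an amino sugar that feeds the hexosamine pathway. Ramos is a cell line from Burkitt lymphoma, profiled on 2 arrays. The sample labels call both Ramos arrays control, whereas the text on the series' design places 1 of them after glucosamine, so Ramos was treated as a cell line and neither array was given a treatment. All cells grew in the same serum-supplemented medium, and no dose of glucosamine is stated in the labels. The KMH2 replicates are described as biological, while nothing says this of the Ramos arrays, whose spread may be technical.

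Autophagy encloses cytoplasm in a double membrane that then fuses with the lysosome, where acid hydrolases break the contents down. A kinase complex starts the process, a lipid kinase complex marks the growing membrane with phosphatidylinositol phosphate, and ubiquitin-like reactions attach proteins of the ATG8 family to it, to which cargo receptors bind. The transcription factors TFEB, TFE3 and MITF bind E-box motifs in many lysosome and autophagy genes, and the Rag GTPases with folliculin help to hold these factors in the cytoplasm when nutrients are plentiful.

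Array medians lay between 5.62 and 5.68 on the log2 scale. The mean level of 8 Hodgkin line markers was 8.70 to 8.82 on the control arrays and 8.26 to 8.37 on the glucosamine arrays, where 6 of the 8 were called lower, and it was 6.44 to 6.51 on the Ramos arrays. The 9 measured B-cell and Burkitt markers averaged 5.34 to 5.45, 5.32 to 5.44 and 10.5 to 10.7 in the same order. The lists thus stood apart between the lines as their names say, except that CCL22, listed with the Hodgkin markers, was higher in Ramos. Macrophages are rich in lysosomes, and of 11 measured macrophage markers 8 lay below the array median on every KMH2 array, CD163 among them. The others, CD14, ITGAM and MSR1, lay above it, with means of 7.37, 7.39 and 7.38 in control. The mean level of the 11 was 5.12 to 5.21 in control, 5.04 to 5.10 after glucosamine and 4.94 to 5.03 in Ramos. After glucosamine none of the 11 was called higher, and CD14 fell by 1.08. In Ramos MSR1 and LYZ were called higher than in KMH2 control, and CD14 and ITGAM lower. The part of the Hodgkin marker shift in the results below was not tested, and in bulk RNA fewer cells of a type and less RNA per cell cannot be told apart.

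Treated and untreated KMH2 cells were compared for their response to glucosamine. After 24 h, 22 of the 47 autophagy and lysosome genes were higher and 4 were lower, and 21 were not called (limma, Benjamini-Hochberg adjusted p under 0.05). Among all genes tested 12.0% were called higher and 14.1% lower. The steepest rises were those of WIPI1, a reader of the phosphoinositide on the forming membrane, and NPC1, the cholesterol exporter of the lysosomal membrane, and the steepest fall was that of ATG4B, a protease of ATG8 proteins. The difference was positive for 39 of the 47 genes. Its median was 0.15 on the log2 scale, against 0.01 over all genes, and it ran from -0.44 to 1.05. The 3 glucosamine arrays lay above all 3 control arrays for 23 of the genes and below them for 5, where 20.3% and 20.8% of all genes did so.

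**Figure D1:**
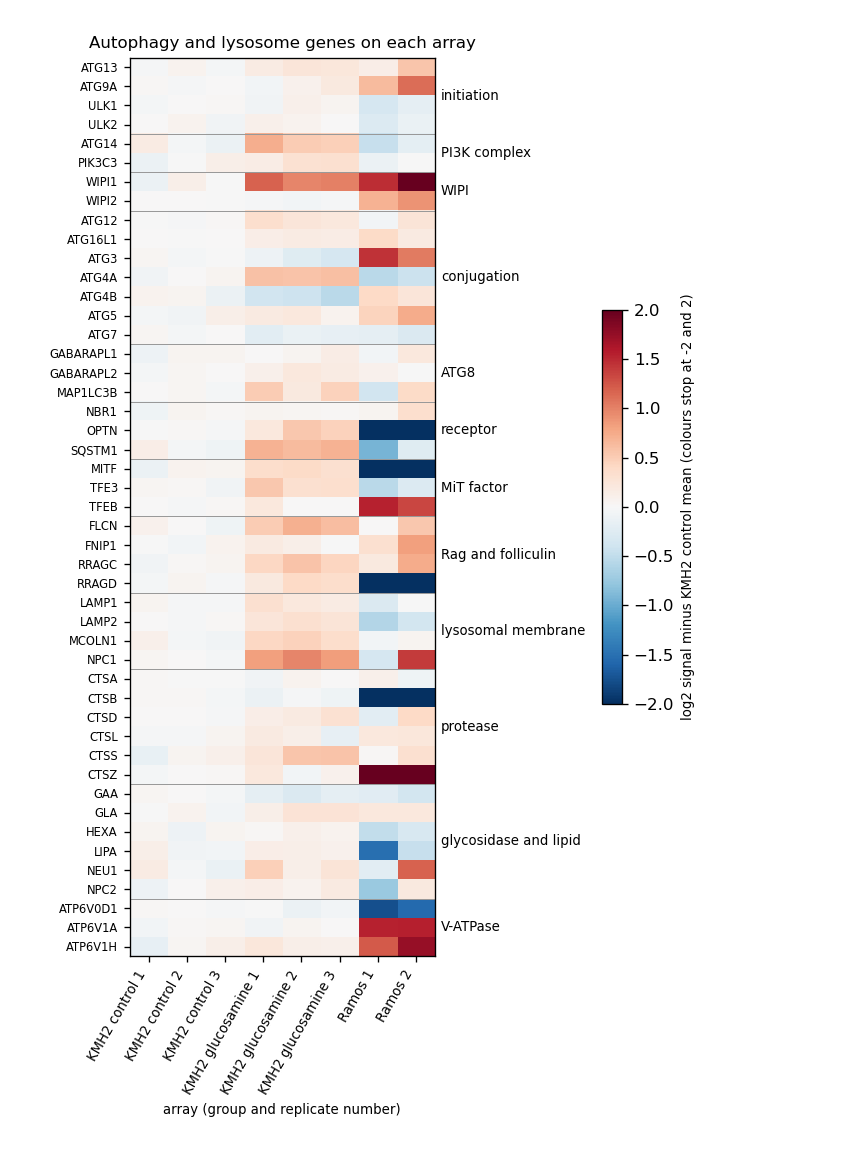
Log2 signal of the 47 genes (rows, grouped by role) on each of the 8 arrays (columns), minus that gene's mean on the 3 KMH2 control arrays, with colours stopped at -2 and 2. The glucosamine columns are mostly pale red, with WIPI1 and NPC1 darkest, while the Ramos columns hold both the deepest reds (CTSZ) and the deepest blues (CTSB, RRAGD, OPTN, MITF).

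The number of lower calls was small and moved with single arrays. It was 1 without control replicate 1, control replicate 2 or glucosamine replicate 2, and 2 without control replicate 3 or glucosamine replicate 3, while the higher calls numbered 17 to 22 over the 6 arrays left out in turn. Quantile normalization gave 23 higher and 1 lower. A fit in which all 8 arrays shared the spread gave 11 higher and 1 lower. The shares of 12.0% and 14.1% over all genes are from the main fit, and none are given for the alternatives. These counts thus cannot tell a smaller excess in the 47 genes from fewer calls among all genes. The fit with a shared spread was also unlike the main fit in its arrays. It takes in the 2 Ramos arrays, whose median SD over the 47 genes was 0.19, against 0.057 in KMH2 control and 0.074 after glucosamine. ATG12, MAP1LC3B, NPC1, RRAGC and RRAGD lost their calls only in that fit. ATG4A, ATG4B, ATG14, WIPI1, SQSTM1, OPTN, TFE3, MITF, LAMP2, CTSS, MCOLN1 and FLCN kept their calls under all 16 alternatives.

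**Figure D2:**
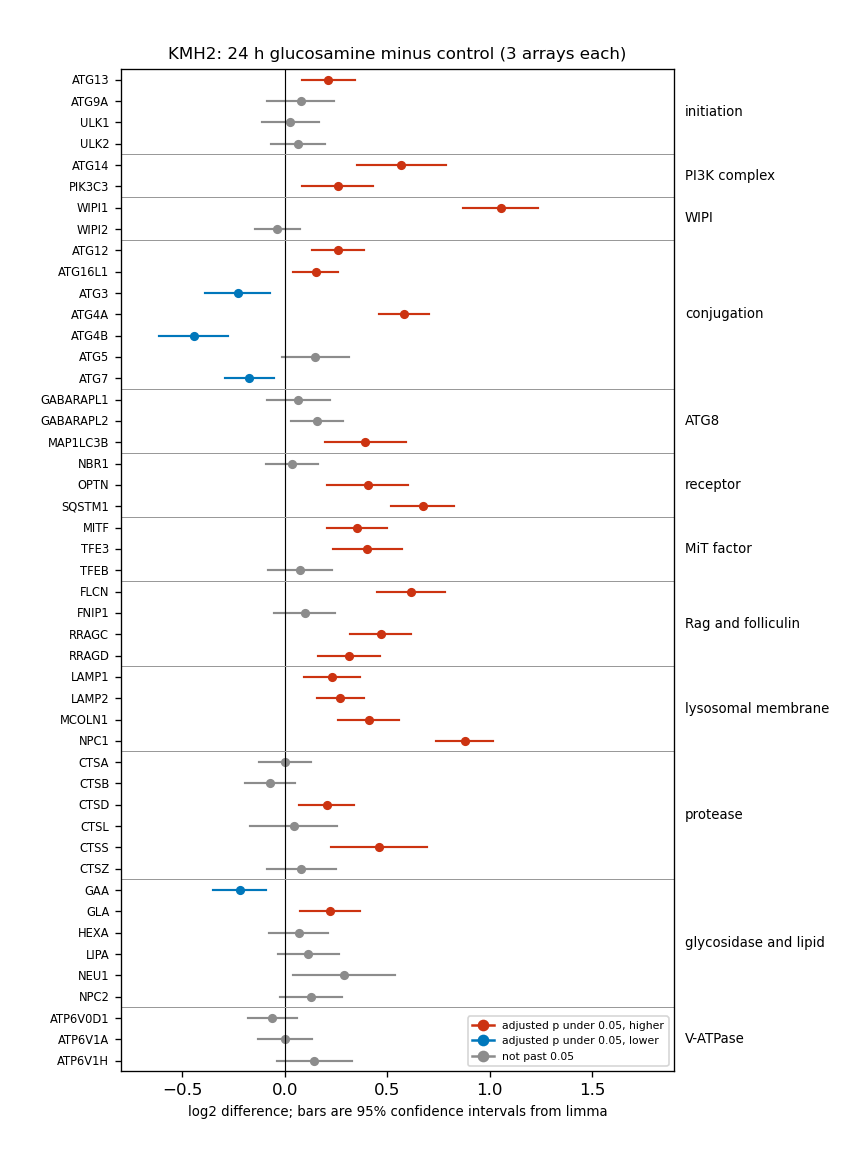
Difference in log2 signal between glucosamine and control in KMH2 (3 arrays each) for each of the 47 genes, as a point with its 95% confidence interval from limma, in red where called higher, blue where called lower and grey where not called. WIPI1 stands farthest to the right at 1.05 and ATG4B farthest to the left at -0.44.

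Of the 4 measured initiation genes, 1 was called higher (25%), where 12.0% of all genes were. ATG13, the adaptor of the ULK kinase complex, was at 8.62, 8.70 and 8.59 in control and at 8.80, 8.88 and 8.87 after glucosamine, so that the groups did not overlap, and it rose by 0.21 ± 0.06 (SE, n = 3 per group, adjusted p = 0.0248). Without control replicate 1 the call did not hold (adjusted p = 0.0726), nor without control replicate 3 (0.0892), glucosamine replicate 2 (0.0755) or glucosamine replicate 3 (0.0858), and the 16 alternatives ran from 0.00799 to 0.249. The kinases ULK1 and ULK2 differed by 0.03 (95% confidence interval -0.11 to 0.17) and 0.06 (-0.07 to 0.20), and ATG9A, which brings lipid to the forming membrane, by 0.08 (-0.09 to 0.24), with adjusted p between 0.496 and 0.804. ULK2 lay below the array medians, at 5.29 to 5.46 in KMH2.

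Of the lipid kinase complex, ATG14 and PIK3C3 rose. ATG14, which directs the complex to autophagy, was at 7.16, 6.95 and 6.87 in control and at 7.72, 7.50 and 7.46 after glucosamine. Every treated array lay above every control array, and within each replicate number the rise was 0.55 to 0.59. The fitted difference was 0.57 ± 0.09 (SE), a 1.48-fold rise with an adjusted p of 0.00311. PIK3C3, the catalytic subunit, rose by 0.26 ± 0.08 (adjusted p = 0.0374). The PIK3C3 call was lost without control replicate 1 (0.114), control replicate 2 (0.106), glucosamine replicate 2 (0.108) or glucosamine replicate 3 (0.123), in a range of 0.0063 to 0.123 over its 16 alternatives. Further subunits were taken from the wider list of pathway genes and named after their values were seen. PIK3R4, the regulatory subunit that holds the complex together, was at 9.23, 9.21 and 9.35 in control and at 8.89, 9.09 and 9.06 after glucosamine, and it fell by 0.25 ± 0.07 (SE, adjusted p = 0.0328). The PIK3R4 call was lost without control replicate 1, 2 or 3 (0.0613, 0.0647 and 0.115) or glucosamine replicate 1 or 3 (0.058 and 0.0633), in a range of 0.0175 to 0.118. NRBF2 and UVRAG differed by 0.29 and -0.09 and were not called.

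The membrane readers WIPI1 and WIPI2 differed from each other in their values. WIPI1 was at 6.29, 6.52 and 6.40 on the control arrays and at 7.58, 7.38 and 7.41 on the glucosamine arrays, with no overlap. It rose by 1.05 ± 0.08 (SE), or 2.08-fold, with an adjusted p of 0.000104. WIPI2 was at 7.36 to 7.37 in control and at 7.31 to 7.34 after glucosamine, a difference of -0.04 (-0.15 to 0.07) that was not called.

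The conjugation genes moved both ways, with 3 of 7 higher and 3 lower (42.9% each). Over all genes 12.0% were higher and 14.1% lower. The proteases ATG4A and ATG4B, which trim ATG8 proteins and release them from membranes, went in opposite directions. ATG4A was at 7.49, 7.57 and 7.61 in control and at 8.14, 8.12 and 8.15 after glucosamine, and it rose by 0.58 ± 0.05 (SE), or 1.50-fold (adjusted p = 0.000203). ATG4B was at 7.00, 6.98 and 6.80 in control and at 6.55, 6.51 and 6.39 after glucosamine, and it fell by 0.44 ± 0.07, or 1.36-fold (adjusted p = 0.00305). Neither gene's groups overlapped. ATG4B had a further probe set with its symbol alone, which differed by -0.51 (adjusted p = 0.00294).

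ATG12, the ubiquitin-like protein joined to ATG5, rose by 0.26 (adjusted p = 0.00986), and ATG16L1, the partner that places this conjugate on membranes, rose by 0.15 (0.0491). ATG7, the activating enzyme of both conjugation reactions, fell by 0.17 (0.0424), and ATG3, the enzyme that passes ATG8 proteins to lipid, fell by 0.23 (0.0395). These are small differences, and only that of ATG12 stayed past the threshold whichever 1 of the 6 arrays was left out. ATG12 lost its call with all 8 arrays sharing the spread (0.0994, in a range of 0.00543 to 0.0994). ATG16L1 lost its call without any 1 of the 6 arrays (0.0588 to 0.146) and with the replicate number as a block (0.0715), in a range of 0.0194 to 0.197 over its 16 alternatives. ATG7 likewise lost its call without any 1 of the 6 arrays (0.0593 to 0.12) and with the block (0.0592), in a range of 0.0254 to 0.135. ATG3 lost its call without control replicate 1, 2 or 3 (0.114, 0.0864 and 0.0977) or glucosamine replicate 2 or 3 (0.0985 and 0.131), in a range of 0.00393 to 0.234. ATG5 itself differed by 0.15 (-0.01 to 0.31) and was not called.

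Of 3 ATG8 family genes, 1 was called higher (33.3%), where 12.0% of all genes were. MAP1LC3B, the LC3 protein most used as a mark of autophagosomes, was at 5.50, 5.54 and 5.46 in control and at 6.01, 5.70 and 5.97 after glucosamine. Its signal was dim, with the control values below their array medians of 5.62, 5.65 and 5.66. All treated arrays lay above the control arrays, with replicate 2 the nearest to them, and the rise was 0.39 ± 0.09 (SE, adjusted p = 0.0107). With all 8 arrays sharing the spread its adjusted p was 0.21, in a range of 0.00204 to 0.21, and its probe set may also capture RNA of the near-identical MAP1LC3B2, which was not tested. GABARAPL2 was at 10.77 to 10.85 in control and at 10.91 to 11.02 after glucosamine, without overlap. Its difference of 0.16 (0.03 to 0.28) missed the threshold at an adjusted p of 0.0706 and passed it under 5 alternatives, among them without glucosamine replicate 1 (0.0425), in a range of 0.0193 to 0.186 over its 16 alternatives. GABARAPL1 lay below the array medians, at 4.87 to 5.12 in KMH2, and was not called.

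Among the cargo receptors SQSTM1 and OPTN rose and NBR1 was not called. SQSTM1, the p62 receptor for ubiquitin-tagged cargo, was at 10.47, 10.30 and 10.25 in control and at 11.04, 10.98 and 11.03 after glucosamine. The treated arrays lay close together and above every control array, and the rise was 0.67 ± 0.07 (SE), or 1.59-fold (adjusted p = 0.000308). OPTN, a receptor for damaged mitochondria and bacteria, was at 7.84, 7.87 and 7.81 in control and at 8.05, 8.38 and 8.30 after glucosamine, with replicate 1 the lowest treated array but still above all controls. It rose by 0.41 ± 0.09 (adjusted p = 0.00962). NBR1, a relative of SQSTM1, differed by 0.04 (-0.09 to 0.16).

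Of the MiT transcription factors, TFE3 and MITF rose and TFEB was not called. TFE3 was at 8.21, 8.19 and 8.10 in control and at 8.71, 8.49 and 8.50 after glucosamine, a rise of 0.40 ± 0.07 (SE) with an adjusted p of 0.0048. MITF was at 7.64, 7.82 and 7.81 in control and at 8.12, 8.14 and 8.07 after glucosamine, a rise of 0.35 ± 0.06 with an adjusted p of 0.0046. For both genes each treated array lay above each control array. TFEB was at 6.66, 6.62 and 6.67 in control and at 6.86, 6.66 and 6.66 after glucosamine. Replicate 1 alone stood above the controls, and the difference of 0.07 had a 95% confidence interval of -0.08 to 0.23 (adjusted p = 0.488). Whether TFEB's difference was unlike those of TFE3 and MITF was not tested.

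Of the Rag and folliculin genes, 3 of 4 rose (75%), where 12.0% of all genes were called higher. FLCN, the folliculin protein that acts on the Rag GTPases, was at 6.92, 6.84 and 6.75 in control and at 7.35, 7.56 and 7.46 after glucosamine, and it rose by 0.62 ± 0.07 (SE), or 1.53-fold (adjusted p = 0.00062). RRAGC, a Rag GTPase, was at 8.47, 8.57 and 8.60 in control and at 8.96, 9.12 and 8.97 after glucosamine, a rise of 0.47 ± 0.06, or 1.38-fold (adjusted p = 0.00132). Neither gene's groups overlapped. RRAGD, the paralogue of RRAGC, rose by 0.31 (adjusted p = 0.00919). RRAGC and RRAGD lost their calls with all 8 arrays sharing the spread (0.0571 and 0.434), where their other alternatives ran down to 0.000358 and 0.00112. FNIP1, the partner of FLCN, differed by 0.10 (-0.05 to 0.25).

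**Figure D3:**
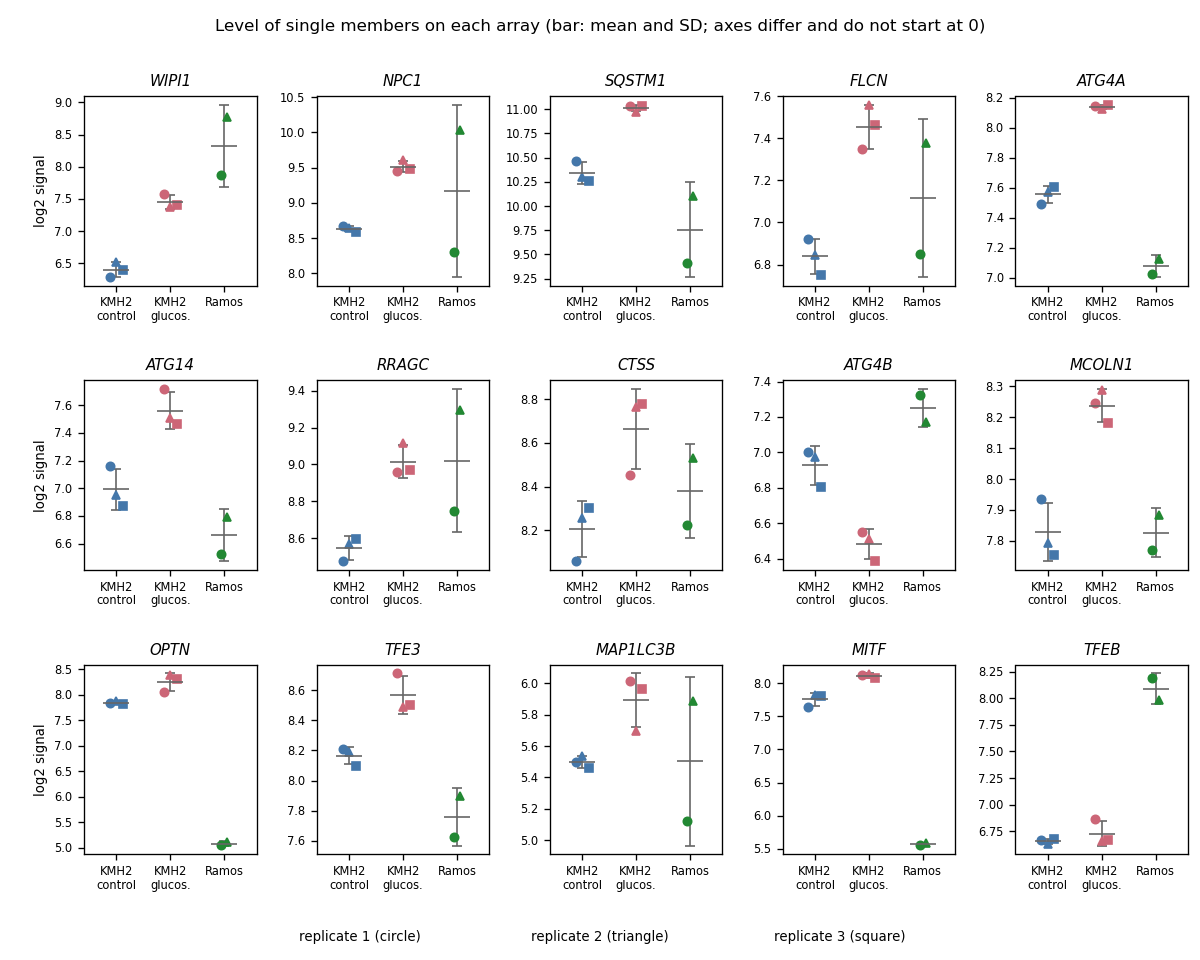
Log2 signal of 15 genes on each array, in KMH2 control (blue), KMH2 after glucosamine (pink) and Ramos (green), with the symbol giving the replicate number and bars the mean and SD of each group. In every panel but that of TFEB the glucosamine arrays lie wholly above or, for ATG4B, wholly below the control arrays, and the Ramos arrays spread widest for NPC1, from 8.31 to 10.04.

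All 4 measured lysosomal membrane genes rose, where 12.0% of all genes were called higher. NPC1 was at 8.67, 8.65 and 8.59 in control and at 9.46, 9.61 and 9.48 after glucosamine, and its rise of 0.88 ± 0.06 (SE), or 1.84-fold, had an adjusted p of 6.94e-05. MCOLN1, the calcium channel of the lysosome, was at 7.94, 7.79 and 7.76 in control and at 8.25, 8.29 and 8.18 after glucosamine, and rose by 0.41 ± 0.06 (adjusted p = 0.0024). The groups did not overlap for either gene. With all 8 arrays sharing the spread the adjusted p of NPC1 was 0.164, in a range of 7.12e-06 to 0.164. The coat glycoproteins LAMP2 and LAMP1 rose by 0.27 (adjusted p = 0.00523) and 0.23 (0.0236). The LAMP1 call was lost without control replicate 2 (0.0875), control replicate 3 (0.0823) or glucosamine replicate 2 (0.0503), in a range of 0.0132 to 0.133.

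Inside the lysosome, 2 of 6 proteases rose (33.3%), where 12.0% of all genes were called higher. CTSS, a cysteine protease that prepares MHC class II for antigen loading, was at 8.06, 8.26 and 8.30 in control and at 8.45, 8.76 and 8.78 after glucosamine. Replicate 1 was the lowest array of both groups, the groups did not overlap, and the rise was 0.46 ± 0.10 (SE, adjusted p = 0.0122). CTSD, the main aspartic protease, rose by 0.20 (adjusted p = 0.0359), a call lost without control replicate 1, 2 or 3 (0.0759, 0.0935 and 0.111) or glucosamine replicate 2 or 3 (0.0702 and 0.123), in a range of 0.00499 to 0.411. CTSA, CTSB, CTSL and CTSZ differed by 0.00, -0.07, 0.04 and 0.08 with adjusted p of 0.379 or more, and CTSL lay below the array medians throughout, at 3.38 to 3.73 in KMH2. CTSZ also lay below them in KMH2, at 5.34 to 5.60.

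Of 6 glycosidase and lipid-handling genes, GLA rose and GAA fell. That is 16.7% each way, near the 12.0% of all genes called higher and the 14.1% called lower. GLA, alpha-galactosidase, rose by 0.22 (adjusted p = 0.0343), and GAA, the acid glucosidase that degrades glycogen, fell by 0.22 (0.021). The GLA call was lost without control replicate 1, 2 or 3 (0.0878, 0.0525 and 0.117) or glucosamine replicate 2 or 3 (0.102 and 0.117), in a range of 0.00624 to 0.117. The GAA call was lost without control replicate 1 (0.0689), control replicate 2 (0.0708) or glucosamine replicate 2 (0.0675), in a range of 0.0118 to 0.0732. NEU1, the lysosomal sialidase, differed by 0.29 (0.04 to 0.54) with an adjusted p of 0.0893. With the replicate number as a block NEU1 passed the threshold at 0.0117, and it passed without control replicate 1 (0.0491) or glucosamine replicate 2 (0.0497), in a range of 0.0117 to 0.624 over its 16 alternatives. HEXA, LIPA and NPC2, the soluble partner of NPC1, differed by 0.07 to 0.13 and were not called.

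None of the 3 subunits of the V-ATPase, the proton pump that acidifies the lysosome, was called after glucosamine by limma. ATP6V0D1, of the membrane sector, differed by -0.06 (-0.18 to 0.06). ATP6V1A and ATP6V1H, of the cytosolic sector, differed by -0.00 (-0.13 to 0.13) and 0.14 (-0.04 to 0.33). The unadjusted p was above 0.05 for each.

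Promoter letters of these genes were read from RefSeq (GRCh38.p14), which held the 250 bases before the start of 41 of the 48 genes. ATP6V1A, ATP6V1H, CTSB, CTSS, HEXA, LAMP2 and RRAGD had no entry there. The motif CACGTG, the E-box core, stood on either strand in 11 of the 41 promoters (26.8%), and in 6.5% of 27326 promoters in all. The longer TCACGTGA, which contains it, stood in 5 of the 41 (12.2%) against 0.889% of all, and a longer palindrome that contains both, the consensus of the CLEAR element bound by TFEB, TFE3 and MITF, in 2 (4.88%) against 0.329%. TGATGNAA, letters found in elements bound by ATF4 with C/EBP partners, was in none of the 41 windows and in 3.18% of all. The 27326 promoters were not limited to the 17958 genes tested and were not matched for base content. As E-box motifs are known in many lysosome and autophagy genes, their share in such a list is not a result of these arrays. The 5 promoters with TCACGTGA are shown to set this shared motif beside the genes' differences. Each is the 100 bases that end just before the RefSeq start of the gene, with TCACGTGA in capitals, and the lines give MCOLN1 (chr19:7522524-7522623, plus strand), LAMP1 (chr13:113297139-113297238, plus), GAA (chr17:80101481-80101580, plus), CTSA (chr20:45891235-45891334, plus) and ATP6V0D1 (chr16:67481158-67481257, minus).
MCOLN1: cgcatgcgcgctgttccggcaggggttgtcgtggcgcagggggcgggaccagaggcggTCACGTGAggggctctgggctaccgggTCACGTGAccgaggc
LAMP1: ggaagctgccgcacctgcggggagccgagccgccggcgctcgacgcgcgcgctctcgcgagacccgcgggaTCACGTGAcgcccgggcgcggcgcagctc
GAA: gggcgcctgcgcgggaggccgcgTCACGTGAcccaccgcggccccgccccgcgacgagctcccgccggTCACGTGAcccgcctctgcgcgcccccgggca
CTSA: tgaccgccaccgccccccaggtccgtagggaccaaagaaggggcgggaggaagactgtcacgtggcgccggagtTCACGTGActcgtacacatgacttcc
ATP6V0D1: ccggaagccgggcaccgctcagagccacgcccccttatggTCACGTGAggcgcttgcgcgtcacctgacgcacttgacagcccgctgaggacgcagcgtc

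The first base of the motif lay 42 and 15 bases before the start in MCOLN1, 77 and 32 in GAA, 29 in LAMP1, 26 in CTSA and 60 in ATP6V0D1. After glucosamine MCOLN1 and LAMP1 rose by 0.41 and 0.23, GAA fell by 0.22, and CTSA and ATP6V0D1 differed by 0.00 and -0.06 without a call. GAA and MCOLN1, the 2 genes with the CLEAR consensus, thus had opposite differences. Of the genes with the largest rises, WIPI1, NPC1, SQSTM1, FLCN (0.62) and ATG4A (0.58) had no CACGTG in the window. ATG14 (0.57) and RRAGC (0.47), with smaller rises, had it. Among the other genes with CACGTG but not TCACGTGA, CTSD rose by 0.20 and ATG3 fell by 0.23. NEU1 and FNIP1 were not called. A match of letters is a description of the sequence and not of binding, which was not measured.

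Beyond the 48 genes, 195 other genes of the same pathways were listed by name, of which 175 were measured. After glucosamine 35 of the 175 were called higher and 41 lower, with a median difference of 0.00 against 0.15 for the genes above and 0.01 for all genes. The 44 other autophagy genes held 12 higher and 5 lower, and the 131 other lysosome genes 23 higher and 36 lower. These stand against 12.0% higher and 14.1% lower among all genes. Both lists were chosen with earlier results of these data known, so the contrast between them is only described. Without control replicate 2 the counts over the 175 were 21 and 25, and without glucosamine replicate 3 they were 26 and 27. With all 8 arrays sharing the spread they were 14 and 19. No share of all genes is given for these settings.

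**Figure D4:**
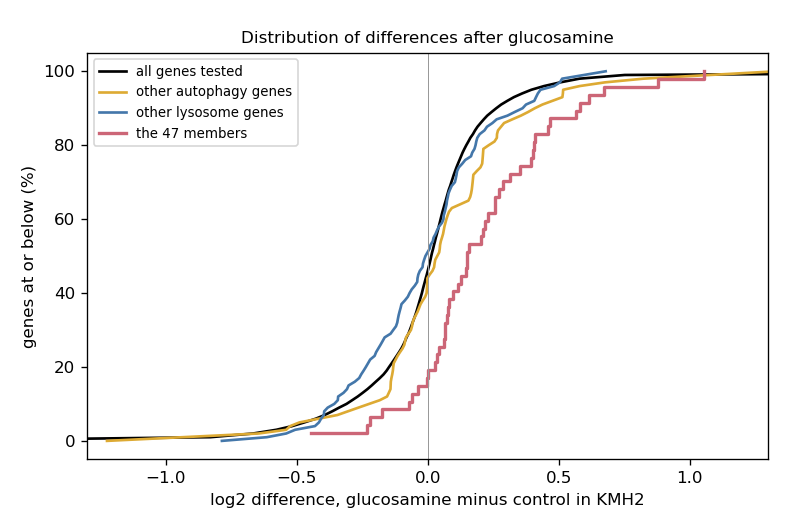
Cumulative share of genes (vertical axis, percent) at or below each log2 difference between glucosamine and control in KMH2 (horizontal axis), for all genes tested, 44 other autophagy genes, 131 other lysosome genes and the 47 measured genes. The line of the 47 genes lies to the right of the others over most of its length, with its median at 0.15.

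Of the other autophagy genes, 7 of 15 cargo receptors rose and 2 fell. CCPG1, a receptor for endoplasmic reticulum, was at 6.61, 6.43 and 6.68 in control and at 7.82, 7.96 and 7.92 after glucosamine, and it rose by 1.33, or 2.52-fold (adjusted p = 3.58e-05). CALCOCO2, a receptor for bacteria, rose by 0.74 (0.000139), and BNIP3, a receptor on mitochondria, fell by 0.51 (0.00425). Of 29 other genes of the autophagy machinery 5 rose and 3 fell. Called higher were 46.7% of the receptors and 17.2% of the machinery genes, where 12.0% of all genes were. Called lower were 13.3% and 10.3% in the same order, where 14.1% of all genes were. ATG101, a subunit of the ULK complex, rose by 0.52 (0.00301), while STX17, which helps the autophagosome to fuse with the lysosome, fell by 0.55 (0.00063). ATG10, the enzyme that joins ATG12 to ATG5, was at 6.14, 6.34 and 6.36 in control and at 5.10, 5.11 and 4.96 after glucosamine, and it fell by 1.22, or 2.34-fold (5.26e-05). Its glucosamine values lay below the array medians, and background in such dim signals shrinks the fold by an unknown amount. With all 8 arrays sharing the spread the adjusted p of CCPG1 was 0.102, in a range of 4.51e-06 to 0.102.

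Of the other lysosome genes, 10 of 29 membrane genes rose and 5 fell, 6 of 41 hydrolases rose and 11 fell, and 3 of 20 genes that sort proteins to the lysosome rose and 8 fell. Of 18 other V-ATPase subunits 3 rose and 4 fell, and of 23 genes of mTORC1 at the lysosome 1 rose and 8 fell. Called higher were 34.5% of the membrane genes, 14.6% of the hydrolases, 15% of the sorting genes, 16.7% of the V-ATPase subunits and 4.35% of the mTORC1 genes, where 12.0% of all genes were, and called lower were 17.2%, 26.8%, 40%, 22.2% and 34.8% in the same order, where 14.1% of all genes were. CLN3, a lysosomal membrane protein lost in a childhood storage disease, rose by 0.68 (adjusted p = 0.000456), SLC17A5, the sialic acid exporter, by 0.63 (0.000131), and DNASE2, the acid nuclease, by 0.52 (0.000577). The steepest falls were those of TPCN1, a cation channel, by 0.79 (0.000131), CLN6, which helps new enzymes to leave the endoplasmic reticulum, by 0.63 (0.000144), and ATP6V1E2, a V-ATPase isoform, by 0.58 (0.000369). Chosen after their values were seen, RRAGA, a Rag GTPase that pairs with RRAGC or RRAGD, fell by 0.41 (0.000712), and FNIP2, the other partner of FLCN, fell by 0.31 (0.0084). With all 8 arrays sharing the spread the adjusted p was 0.133 for CLN6, in a range of 1.01e-05 to 0.133, and 0.197 for FNIP2, in a range of 0.00492 to 0.197.

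The comparison of Ramos with KMH2 control described how the lines differ in the same genes. It shares the 3 control arrays with the glucosamine comparison, so the values of both are given only side by side. Of the 47 genes, 15 were higher and 14 lower in Ramos and 18 were not called, where 22.6% of all genes were called higher and 21.6% lower. CTSB, RRAGD, OPTN and MITF were far lower in Ramos, and CTSZ, WIPI1, TFEB, ATP6V1A and ATP6V1H far higher. The median size of the difference was 0.41 on the log2 scale, against 0.24 over all genes. It was 0.41 for the 175 other pathway genes as well. Dim genes were fewer here, with 4 of the 47 below the median level, against 7330 of 17958 genes. The Ramos arrays lay above all 6 KMH2 arrays for 14 genes and below them for 14, where 27.1% and 21.5% of all genes did so.

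**Figure D5:**
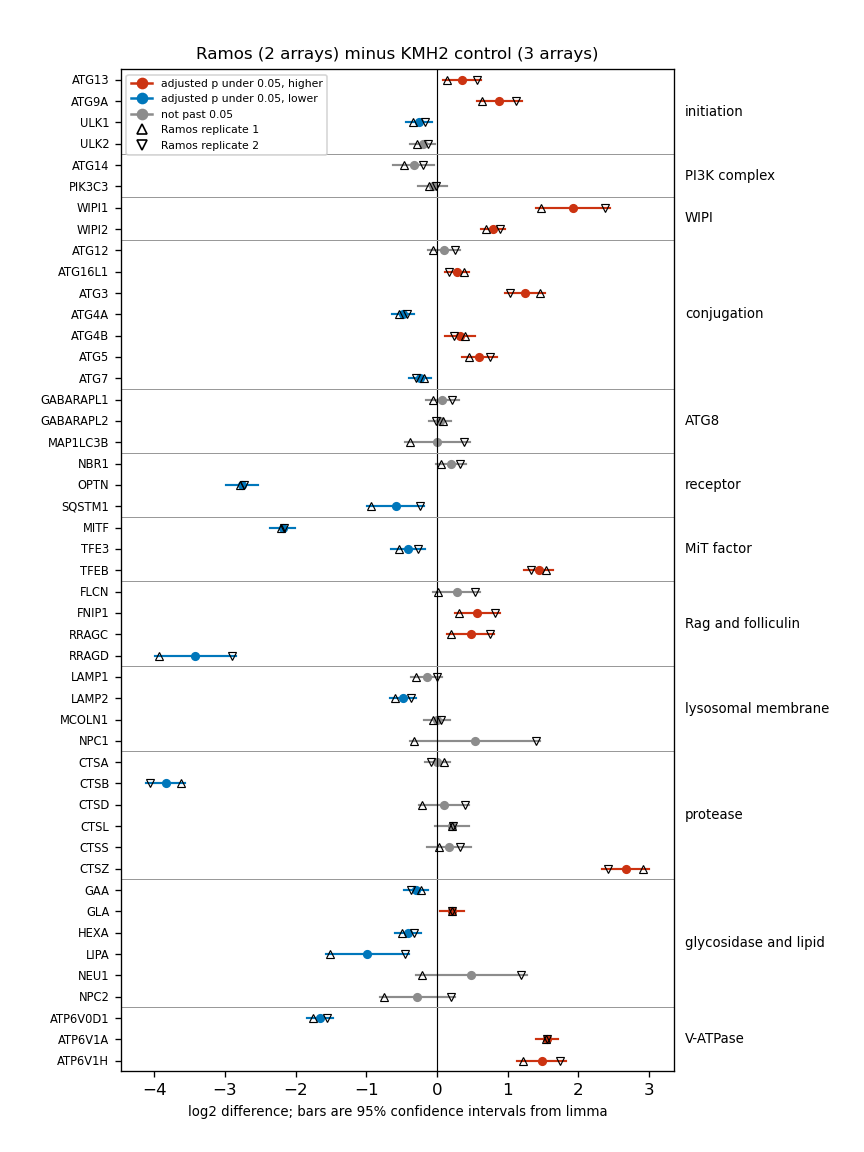
Difference in log2 signal between Ramos (2 arrays) and KMH2 control (3 arrays) for each of the 47 genes, as a point with its 95% confidence interval from limma, in red where called higher, blue where called lower and grey where not called. Open triangles give each Ramos array against the control mean, and they stand far apart for NPC1, LIPA, NEU1 and RRAGD.

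The 2 Ramos arrays, which the labels and the design text describe differently, also differed from each other in these genes. Replicate 2 was above replicate 1 in 37 of the 47 genes, where 8619 of 17958 genes were. It was at least 1 log2 unit higher for NPC1 (1.73), NEU1 (1.40), LIPA (1.06) and RRAGD (1.04), which is 4 of 47 genes against 1.40% of all genes. It was at least 1 log2 unit lower for 0 of the 47, against 1.26% of all. NPC2 was 0.94 higher, WIPI1 0.91, MAP1LC3B 0.76 and SQSTM1 0.69, while CTSZ was lower by a difference of -0.50 and ATG3 by -0.41. Among the other pathway genes CCPG1 was 2.17 higher on replicate 2. With 1 array on each side there is no test of these differences. The median SD of the 47 genes was 0.19 between the Ramos arrays, 0.057 in KMH2 control and 0.074 after glucosamine.

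The proteases split between the lines. CTSB, a cysteine protease abundant in many cell types, was at 8.74, 8.73 and 8.67 in KMH2 control and at 5.09 and 4.65 in Ramos, below the array medians. The difference was -3.84 ± 0.12 (SE), a 14.3-fold lower signal (adjusted p = 5.02e-08). CTSZ, a cysteine carboxypeptidase, ran the other way, from 5.35, 5.41 and 5.42 in KMH2 control, below the array medians, to 8.31 and 7.81 in Ramos, a difference of 2.67 ± 0.14, or 6.35-fold (1.5e-06). The Ramos signals of RRAGD, OPTN and MITF, given below, also lay below the array medians. Background in such dim signals shrinks the folds of all 5 genes by an unknown amount. CTSA, CTSD, CTSL and CTSS were not called.

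The MiT factors also split. TFEB was at 8.19 and 7.99 in Ramos, above every KMH2 array, and 1.44 ± 0.09 (SE) or 2.71-fold higher than in KMH2 control (adjusted p = 4.28e-06). MITF was at 5.56 and 5.59 in Ramos, below every KMH2 array, and differed by -2.19 ± 0.07, or 4.55-fold (9.3e-08). TFE3 was at 7.62 and 7.89 in Ramos and differed by -0.41 (0.0133). The TFE3 call was lost without Ramos replicate 1 (0.0601) and with array weights (0.0525), in a range of 0.00262 to 0.0601 over 14 alternatives. RRAGD was at 7.95, 8.03 and 7.96 in KMH2 control and at 4.04 and 5.08 in Ramos, a difference of -3.42 ± 0.25, or 10.7-fold (9.6e-06), and FNIP1 was 0.57 higher in Ramos (0.0102).

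Of the V-ATPase subunits, ATP6V1A was at 8.06, 8.14 and 8.16 in KMH2 control and at 9.66 and 9.68 in Ramos, a difference of 1.55 ± 0.07 (SE, adjusted p = 4.28e-07). ATP6V1H was at 6.97, 7.17 and 7.25 in KMH2 control and at 8.35 and 8.87 in Ramos, a difference of 1.48 ± 0.15 (7.2e-05). ATP6V0D1 was at 11.31, 11.30 and 11.27 in KMH2 control and at 9.54 and 9.74 in Ramos, a difference of -1.66 ± 0.08 (6.45e-07). The groups did not overlap for any of the 3. Of the 18 other V-ATPase subunits measured, 4 were higher (22.2%) and 7 lower (38.9%) in Ramos, with a median difference of -0.05. Over all genes 22.6% were called higher and 21.6% lower.

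Among the autophagy genes, WIPI1 was at 7.87 and 8.78 in Ramos, above every KMH2 array, and 1.92 ± 0.23 (SE) or 3.79-fold higher than in KMH2 control (adjusted p = 0.000177). OPTN was at 5.05 and 5.11 in Ramos and differed by -2.76 ± 0.10, or 6.76-fold (1.26e-07). ATG3, WIPI2, ATG9A and ATG5 were higher in Ramos by 1.24, 0.79, 0.88 and 0.60, and ATG4A and, on the lysosomal membrane, LAMP2 were each lower by a difference of -0.48. ATG4A and ATG4B differed in opposite directions here as well, at -0.48 and 0.32. The ATG4B call (0.0211) was lost without KMH2 control replicate 3 (0.0663) or Ramos replicate 1 (0.0847), in a range of 0.0133 to 0.164.

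The genes described as higher or lower in Ramos, other than ATG4B and TFE3, kept their calls under all 14 alternatives. The calls of ULK1, ATG4B, ATG7, ATG13, ATG16L1, SQSTM1, TFE3, GAA, GLA, HEXA, RRAGC and LIPA were each lost under at least 1 of them. With 1 Ramos array left out, the Ramos group has no spread of its own, and the p-values assume that the lone array varies as the KMH2 arrays do. Without Ramos replicate 1 the counts were 19 higher and 11 lower, and without Ramos replicate 2 they were 12 higher and 19 lower. NPC1 and MAP1LC3B had opposite directions with each Ramos array alone. NPC1 was 1.40 higher than in KMH2 control without Ramos replicate 1 (adjusted p = 2.31e-06) and differed by -0.33 without Ramos replicate 2 (0.0125), and MAP1LC3B was 0.39 higher (0.0276) and differed by -0.38 (0.0328), in ranges up to 0.447 and 0.998 over the alternatives. With both arrays neither gene was called. MAP1LC3B was dim, at 5.12 and 5.89 in Ramos, the first of these below its array median. For the counts without 1 Ramos array, no share of all genes is given here.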

How the data were processed

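The deposited value table holds 1 log2 signal per probe set and array. The log2 unit was read from the values, and the authors' summarization and normalization are not given in the sources used here. RNA was labelled with biotin for Affymetrix HuGene arrays, per the labels' protocols. Of 33297 probe sets, a platform annotation of 2016 gave 1 symbol to 19181, several to 2055 and none to 12061. Only the 19181 were tested. Linear models were fitted in limma 3.58.1 (R 4.3.3) with lmFit and eBayes, and two-sided p-values were adjusted by Benjamini-Hochberg across those 19181 at a threshold of 0.05. The glucosamine comparison used the 6 KMH2 arrays, and the Ramos comparison all 8 arrays in 3 groups. Standard errors and 95% confidence intervals are from the same fits. The genes, lists and naming rules were chosen with earlier results of these data known. Values on every array were given for the 14 largest called glucosamine differences without overlap, the MiT factors and the 10 largest Ramos differences. Of the other pathway genes the 3 largest rises and falls in each block were named. Deviations from the group means correlated within each replicate number of the KMH2 arrays (0.457, 0.234 and 0.231). Across numbers the correlations ran from -0.37 to 0.25. Control replicate 2 correlated with glucosamine replicate 3 at 0.252, and control replicate 3 with glucosamine replicate 2 at 0.182. Only number 1 thus stood apart, and whether numbers 2 and 3 mark pairs was not settled. Alternatives were other normalizations, filters, probe set choices, weights, variance priors, arrays sharing the spread, the replicate block and each array left out. Precision is limited by how few arrays each group has. Data were simulated with the spread within groups of all 8 arrays, Ramos included, whereas the glucosamine fit left Ramos out. The median SD over all genes was 0.112 in Ramos, 0.067 in KMH2 control and 0.079 after glucosamine. The simulation also held far fewer changed genes than were called here, which makes the adjustment stricter. In it limma recovered 2% of glucosamine differences of 0.3, 62% of 0.6 and 76% of 1 on the log2 scale.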

Additional observations from a re-analysis of the deposited data

How the results depend on the processing

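Counts of called genes were recomputed under 16 alternatives for glucosamine and 14 for Ramos. The share of all genes called is given for the main fits only, so the counts below have no such share beside them. With all 8 arrays sharing the spread, 11 of the 47 genes were higher and 1 lower after glucosamine, and 14 and 19 of the other pathway genes. Lower calls numbered 1 with quantile normalization and 2 when the adjustment ran over the whole table. Leaving out 1 array at a time gave 17 to 22 higher and 1 to 3 lower calls, and 21 to 33 higher and 25 to 34 lower among the other pathway genes. For Ramos, where a lone Ramos array is assumed to vary as the KMH2 arrays do, leaving out 1 array gave 11 to 19 higher and 11 to 19 lower, and array weights gave 9 lower. With the replicate number as a block, 22 genes were higher and 3 lower after glucosamine, with 38 and 38 of the other pathway genes. In the Ramos comparison the block also tied each Ramos array to the KMH2 arrays of its number, a link that was not tested. It gave 14 higher and 12 lower in Ramos, where ATG7 (adjusted p = 0.0598), SQSTM1 (0.0524) and GLA (0.0948) lost their calls. It changed no other call among the 47 genes beside ATG7, ATG16L1 and NEU1 after glucosamine. Without Ramos replicate 2 the differences of NPC1 (-0.33) and MAP1LC3B (-0.38) changed sign against those without Ramos replicate 1 (1.40 and 0.39), and the cause was not tested. No scaling moved the median of all genes by more than 0.1.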
